A study of Mus musculus with 2 samples.

Results

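The lens crystallin genes encode the soluble proteins that fill the fibre cells of the eye lens. They were followed here on 2 Affymetrix mouse expression arrays, made from RNA labelled as cerebral cortex. The set was given by name and comprised 10 genes: Cryaa of the alpha class, Cryba1, Cryba2 and Cryba4 of the beta-acidic class, Crybb1, Crybb2 and Crybb3 of the beta-basic class, and Crygc, Crygd and Crygs of the gamma class. A gene had a value where a probe set was annotated to it alone, which held for 9 of the 10, with 1 probe set each, among 18193 genes on the array. The exception was Crygc, whose probe set is also annotated to Crygb. The genes were chosen by their signals on these 2 arrays and by their null against wild-type difference, so both are given as a description and carry no test.

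One array held RNA labelled as cortex of a Sox11-/- embryo, called Sox11 null below. The other held RNA labelled as cortex of a wild-type (Sox11+/+) littermate. Both embryos were taken at E17.5, late in embryonic development, from a mating of Sox11+/- parents on a mixed C57BL/6 and 129 background, and genotypes came from PCR on tail clips. Sox11 is a SoxC transcription factor gene. The labels do not describe the null allele, and 1 label field writes the genotype without the number of the Sox gene. With 1 embryo and 1 array per genotype there is no replicate check, so no p-value, SD between embryos or standard error can be given. In these bulk samples, fewer lens cells and less crystallin RNA per cell cannot be told apart.

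Alpha-crystallins are small heat shock proteins that act as chaperones. Beta- and gamma-crystallins share a common fold and are packed at high concentration, which gives the lens its refractive power. Their genes are switched on as lens epithelial cells become fibre cells, under transcription factors that include MAF, PAX6, PROX1 and members of the SOX family. The cerebral cortex is not a known site of high expression of beta- and gamma-crystallins.

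The 10 genes lie on 5 chromosomes of the GRCm38.p6 assembly. Cryba4, Crybb1, Crybb2 and Crybb3 are on chromosome 5, where Cryba4 neighbours Crybb1 and Crybb2 neighbours Crybb3. Crygc and Crygd are neighbours on chromosome 1, which also carries Cryba2, and Cryba1, Crygs and Cryaa lie on chromosomes 11, 16 and 17. Promoter windows from 250 bases before to 50 bases after the annotated start were found for all 10 in the RefSeq promoter table of that assembly. A representative of each class is printed here, 5′ to 3′ on the strand of the gene, because genes of all 4 classes were lower on the same array. Cryba4 and Crybb1 are shown as a pair because they start close together on opposite strands. Capitals mark matches to 4 short motifs on either strand: TATAAA (the TATA box), TGCTGA (the core of the MAF recognition element), and ACAAAG and ACAATG (forms of the site bound by SOX proteins). Adjacent matches would run together in capitals, but none of the matches shown overlap. The windows are chr17:31677681-31677980 (plus strand) for Cryaa, chr5:112252469-112252768 (minus strand) for Cryba4, chr5:112255570-112255869 (plus strand) for Crybb1 and chr1:65063391-65063690 (minus strand) for Crygd.
Cryaa: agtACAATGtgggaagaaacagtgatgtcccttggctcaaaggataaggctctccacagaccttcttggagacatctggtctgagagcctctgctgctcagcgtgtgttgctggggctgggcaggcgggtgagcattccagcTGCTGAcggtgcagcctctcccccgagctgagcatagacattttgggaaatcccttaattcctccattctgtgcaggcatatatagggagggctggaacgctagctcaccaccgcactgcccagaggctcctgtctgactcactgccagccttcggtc
Cryba4: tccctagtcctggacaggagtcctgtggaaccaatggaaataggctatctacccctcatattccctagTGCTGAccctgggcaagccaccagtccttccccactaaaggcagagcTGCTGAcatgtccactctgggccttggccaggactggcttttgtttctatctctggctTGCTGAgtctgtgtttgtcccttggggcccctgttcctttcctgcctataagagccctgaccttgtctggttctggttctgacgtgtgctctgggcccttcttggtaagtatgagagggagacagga
Crybb1: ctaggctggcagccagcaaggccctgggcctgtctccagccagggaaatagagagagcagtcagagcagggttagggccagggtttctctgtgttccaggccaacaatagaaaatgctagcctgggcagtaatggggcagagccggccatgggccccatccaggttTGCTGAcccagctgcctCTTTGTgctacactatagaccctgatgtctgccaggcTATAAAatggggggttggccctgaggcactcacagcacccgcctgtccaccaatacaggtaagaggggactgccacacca
Crygd: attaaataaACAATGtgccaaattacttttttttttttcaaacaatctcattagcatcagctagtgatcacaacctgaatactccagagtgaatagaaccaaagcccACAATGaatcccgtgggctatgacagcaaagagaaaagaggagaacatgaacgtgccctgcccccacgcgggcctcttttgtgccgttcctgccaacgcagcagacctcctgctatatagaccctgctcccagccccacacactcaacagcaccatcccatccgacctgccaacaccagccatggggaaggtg

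The MAF core TGCTGA was present in 8 of the 10 crystallin windows (80%), against 6401 of all 32851 promoter windows of the same length in the table (19.5%). Cryba4 held 3 copies, the nearest at positions -77 to -72 from the start, and its neighbour Crybb1 held 1 at -84 to -79. In Cryaa the copy lay at -108 to -103. The windows of Crybb2 and Crygd had no match to these letters. TATAAA was found in 4 of 10 windows (40%), against 13.6% of all windows. In 3 of them (Cryba1, Crybb1 and Crygs) it lay on the gene's strand between 40 and 16 bases before the start, a placement that 1.99% of all windows had. ACAAAG was found in 3 of 10 windows (30%, against 18.7% of all) and ACAATG in 4 of 10 (40%, against 12.6%). Crygd held ACAATG at -241 to -236 and at -143 to -138. Crybb1 held ACAAAG, on its opposite strand, at -67 to -62. A match describes letters in the reference genome and says nothing of a factor bound in these samples.

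**Figure D1:**
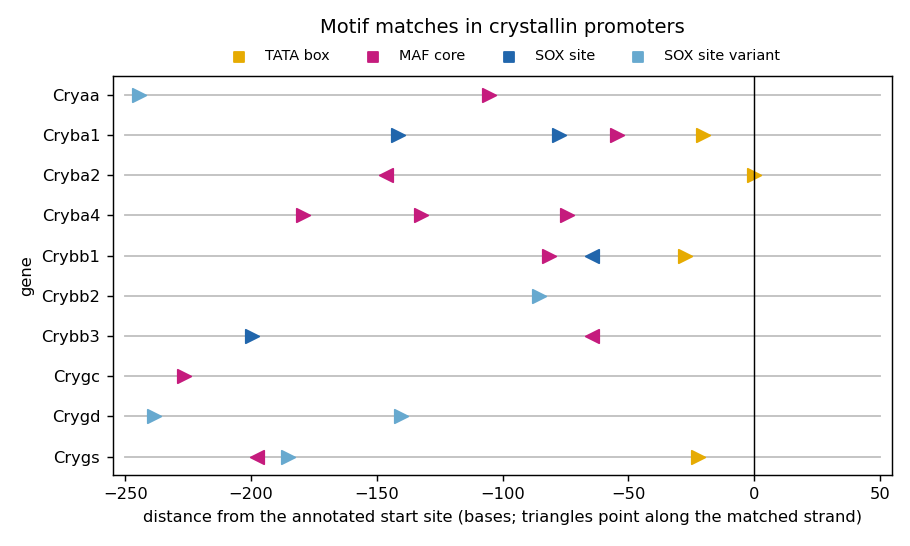
Motif matches in the promoter windows of the 10 crystallin genes, by distance in bases from the annotated start (x axis). Each triangle is a match and points along the strand on which it was found; MAF core matches appear in 8 of 10 genes and a TATA box just before the start in Cryba1, Crybb1 and Crygs.

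Apart from that of Crybb2, crystallin signals were high on both arrays. All 9 genes with a value had a lower signal on the Sox11-null array. Signals are deposited probe set intensities on a linear scale in arbitrary units, each array having been scaled to the same overall level. A gene counted as measured if either array gave it a signal no lower than the median of that array (177 for Sox11 null and 178 for wild type), which all 9 passed. Of the 9, Crybb2 alone lay below the median on 1 of the arrays, the Sox11-null array. Summed over the 9 genes, the signal was 23548 on the Sox11-null array, against 38309 on the wild-type array, or 61.5%. Log2 differences are Sox11 null minus wild type, after a shift of the null array that set the median of the 12390 measured genes to 0.

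The only alpha-class gene of the set was Cryaa, an alpha-crystallin chaperone of the lens. It had a signal of 4653 in the Sox11-null library, against 7001 in the wild-type library. These values lay at the 97.4th percentile of the probe sets of the null array and at the 98.3rd of the wild-type array. The log2 difference was -0.57, or 1.48-fold lower, just inside the 1.5-fold boundary of 0.58 on the log2 scale. Without centring the difference was -0.59, just beyond it.

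The beta-acidic crystallins form oligomers with the basic ones in the lens fibre cytoplasm. Cryba1, which encodes a pair of beta-crystallin polypeptides by alternative translation starts, had the highest signal of the 9 genes in both libraries. It was at 5275 in the Sox11-null library, against 8494 in the wild-type library (log2 difference -0.67, 1.59-fold lower). Cryba2, a further acidic subunit, had the smallest difference of the set, with 1813 in the null library, against 2581 in wild type (-0.49, 1.40-fold lower). Cryba4, another acidic subunit, was at 1402 in the null library, against 2525 in wild type (-0.83, 1.78-fold lower). In the null library Cryba2 was thus at 70.3% of its wild-type signal and Cryba4 at 55.5%. Within the acidic class, the differences spanned those of all the other genes except Crybb2.

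The beta-basic crystallins carry a C-terminal extension that the acidic ones lack. Crybb1, a basic subunit that neighbours Cryba4, was at 3831 in the Sox11-null library, against 6305 in the wild-type library (-0.70, 1.62-fold lower). Crybb3, also a basic subunit, was at 3050 in the null library, against 5280 in wild type (-0.77, 1.71-fold lower). Crybb2 becomes abundant in the lens mainly after birth. Its signals were the lowest of the set, at 122 in the null library and 283 in wild type, at the 42.0th and 60.1st percentiles of their arrays. It had the largest difference of the set (-1.19, 2.28-fold lower). Differences spread more widely at such low signals. The central 95% of differences ran from -0.94 to 0.82 among the 4130 dimmest measured genes, and from -0.46 to 0.45 among the 4130 brightest. With low signals raised to each array's median, Crybb2 was at -0.65.

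The gamma-crystallins are monomers, most of them made early in fibre differentiation. Crygd, a gene of the gamma cluster on chromosome 1, was at 2620 in the Sox11-null library, against 4544 in the wild-type library (-0.77, 1.71-fold lower). Crygs lies outside that cluster and is the gamma member made through adult life. It was at 783 in the null library, against 1296 in wild type (-0.71, 1.63-fold lower). The probe set annotated to both Crygc and Crygb, which cannot be assigned to either gene, gave 6602 in the null library, against 11340 in wild type (-0.76). The cluster genes are close relatives in sequence. Their probe sets may bind RNA of more than 1 gene, and the probe sequences were not used here.

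**Figure D2:**
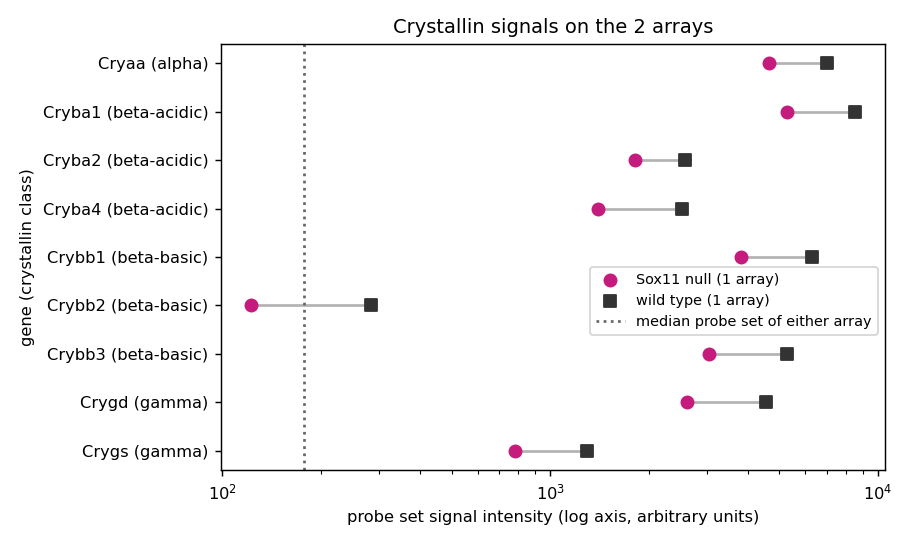
Deposited signal of the 9 crystallin genes on a log axis (x, arbitrary units), with the Sox11-null array as circles and the wild-type array as squares, 1 array each. The null value lies left of the wild-type value in every row, and the dotted line is the median probe set signal; only the null value of Crybb2 falls below it.

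The order of the 9 signals was the same on both arrays: Cryba1, Cryaa, Crybb1, Crybb3, Crygd, Cryba2, Cryba4, Crygs and Crybb2, from high to low. Probe sets differ in how well they bind their target, so this is an order of signals and not of RNA amounts. Without replicates, no neighbours in the order can be said to differ beyond their spread. The summed signal of the beta-acidic genes was 8490 in the null library against 13599 in wild type (62.4%). That of the beta-basic genes was 7003 in the null library against 11868 in wild type (59.0%). That of the gamma genes was 3402 in the null library against 5840 in wild type (58.3%), and the single alpha gene was at 66.5%.

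Median log2 differences were -0.57 for alpha (1 gene), -0.67 for beta-acidic (3 genes), -0.77 for beta-basic (3 genes) and -0.74 for gamma (2 genes). The ranges overlapped. Beta-acidic differences ran from -0.83 to -0.49, beta-basic from -1.19 to -0.70 and gamma from -0.77 to -0.71, and the alpha value lay within the beta-acidic range. The median of all 9 genes was -0.71. With 1 array per genotype and 1 to 3 genes per class, whether the classes differ was not tested.

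At a fixed size of 1.5-fold, 7 of the 9 genes were lower in the Sox11-null library and none was higher. Cryaa and Cryba2 were within 1.5-fold. Over all 12390 measured genes, the share lower by that size was 3.24% and the share higher was 3.07%, around a median of 0. Among the 4130 brightest measured genes, 1.38% were at least 1.5-fold lower. The crystallins were chosen for this contrast, so nothing is read from their count against these shares. At 2-fold, Crybb2 was the only one of the 9 to be lower and none was higher, where 0.985% of measured genes were lower and 0.573% higher. Differences of the 9 genes lay between -1.19 and -0.49, a range that held 515 measured genes (4.16%).

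**Figure D3:**
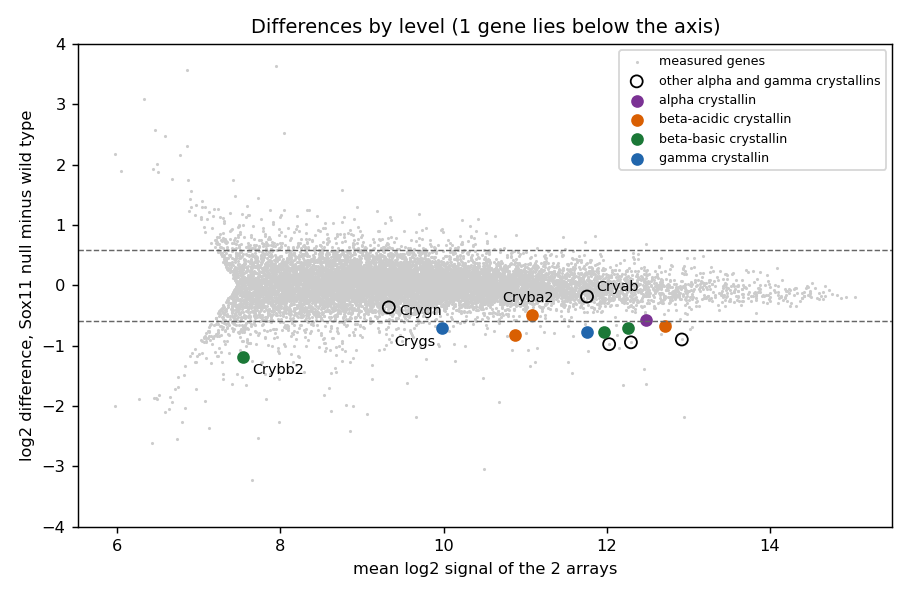
Log2 difference, Sox11 null minus wild type (y), against mean log2 signal of both arrays (x) for the measured genes, with the 9 crystallins coloured by class, other alpha and gamma crystallins as open circles, and dashed lines at 1.5-fold. Apart from Crybb2 at low signal, the coloured points lie in a band between -0.83 and -0.49.

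Of 5 other alpha- and gamma-crystallin genes with a value, 3 were at least 1.5-fold lower and 2 were within 1.5-fold. Over all measured genes, the share lower by that size was 3.24%. Cryga, Crygb and Crygf, the other members of the chromosome 1 gamma family with a value, had larger differences than each of the 9 genes except Crybb2. Cryga was at 5640 in the Sox11-null library, against 10644 in the wild-type library (-0.90). Crygb was at 3601 in the null library, against 7022 in wild type (-0.94), and Crygf at 2962 in the null library, against 5900 in wild type (-0.97). Crygn, a gamma gene also known from the retina, had 563 in the null library and 735 in wild type (-0.36). Cryab is the alpha-crystallin also made in muscle and heart. Its brightest probe set gave 3226 in the null library and 3718 in wild type (-0.18), and another measured probe set gave 2608 in the null library and 2317 in wild type (0.19), so the probe sets differed in sign.

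Genes next to the crystallins on their chromosomes were also read. All 9 measured neighbours that are not crystallins were within 1.5-fold, with differences from -0.18 to 0.20. So were 11609 of all 12390 measured genes, and nothing is read from this count. Cfap65, an unmeasured neighbour of Cryba2, was at 111 in the Sox11-null library and 71.5 in the wild-type library (0.66). On chromosome 5, Mn1, beside Cryba4, was at 1187 in the Sox11-null library, against 1109 in the wild-type library (0.12). Tpst2, beside Crybb1, was at 456 in the null library, against 485 in wild type (-0.07). Grk3, beside Crybb2, was at 1304 in the null library and 1157 in wild type (0.19).

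Structural genes of the lens fibre other than crystallins were read from a list of 14, of which 11 had a value and 8 were measured. Of these 8, 4 were at least 1.5-fold lower, where 3.24% of all measured genes were. None of the 8 was higher, and their median difference was -0.43. The 4 were Mip, the water channel of the fibre membrane, Lim2, a fibre membrane protein, and Bfsp1 and Bfsp2, the subunits of the beaded filament. Mip was at 404 in the Sox11-null library, against 669 in the wild-type library (-0.71), although its other, unmeasured probe set gave 111 in the null library and 120 in wild type (-0.09). Lim2 was at 664 in the null library, against 1032 in wild type (-0.62). Bfsp1 was at 160 in the null library, against 251 in wild type (-0.63), and Bfsp2 at 139 in the null library, against 273 in wild type (-0.95). Bfsp1 and Bfsp2 were below the array median in the null library and passed the filter through the wild-type array alone, so the count of 4 is a description and supports nothing. These genes were not in the set, but an earlier description of the arrays was known when they were listed. The other 4 measured genes were within 1.5-fold. Gja3, a lens gap junction gene, was at -0.17, and its other, unmeasured probe set gave 117 in the null library and 75.6 in wild type (0.65). Hspb1 (0.33, and 0.55 by its second measured probe set), Fabp5 (-0.25) and Caprin2 (0.21) are expressed in many tissues outside the lens.

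Transcription factors of lens development were within 1.5-fold in all 8 of 8 measured cases by their brightest probe sets, with a median of -0.12. So were 11609 of all 12390 measured genes, and nothing is read from this count. Of the 8, 6 were below 0 and 2 above. The lowest were Tfap2a (-0.46), Meis1 (-0.31) and Six3 (-0.25), with Sox1 and Pitx3 both at -0.12. Maf was at 2382 in the Sox11-null library and 2269 in the wild-type library (0.09). Sox2 was at 2975 in the null library and 3088 in wild type (-0.03), and Pax6 at 529 in the null library and 470 in wild type (0.19). These factors are also expressed in the brain. The other, unmeasured probe sets of Pax6 gave 0.82, 0.76 and 0.05, and the dimmest had signals of 37.2 in the null library and 33.0 in wild type. The lens forkhead gene Foxe3 was near the bottom of the signal range, at 9.98 in the null library and 6.90 in wild type. The fibre heat shock factor Hsf4 (89.1 in null, 141 in wild type) and Prox1 (163 in null, 73.0 in wild type) stayed below both medians and were not counted.

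Signals of markers of other eye tissues varied, and do not by themselves show that these tissues were present. Of 11 photoreceptor genes with a value, only Rbp3 was measured (221 in the Sox11-null library and 181 in the wild-type library, 0.31), and the summed signal was 813 in the null library against 651 in wild type. Photoreceptors are immature at this age. Of 4 measured genes of other retinal neurons, Atoh7, a ganglion cell factor, was beyond 1.5-fold higher, at 385 in the null library against 239 in wild type (0.71). Pigment cell genes are shared by the retinal pigment epithelium and melanocytes. Of 5 measured, 2 were at least 1.5-fold lower, where 3.24% of all measured genes were. The 2 were Mitf, at 208 in the null library against 377 in wild type (-0.84), and Tyrp1, at 174 in the null library against 298 in wild type (-0.75). Other probe sets of Tyrp1 gave -1.09 (measured) and -0.04 (unmeasured). Tyrp1 was below the array median in the null library and passed the filter through the wild-type array alone, so this count supports nothing. Rpe65, specific to the pigment epithelium, was at 9.02 in the null library and 37.6 in wild type, both below the 25th percentile used as the floor. In cornea and conjunctiva, 5 of 5 measured genes were within 1.5-fold by their brightest probe sets, as were 11609 of all 12390 measured genes. Krt13 was at 0.02 by its brightest probe set, and its other measured probe sets gave -0.05 and -0.88. The corneal keratin Krt12 was at 244 in the null library and 251 in wild type (-0.02), and the corneal stroma gene Kera at 632 in the null library and 920 in wild type (-0.52).

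Some markers of several other tissues also differed between the same 2 libraries. Cortical neuron and progenitor genes were present, with Neurod6 at 2723 in the Sox11-null library and 3019 in the wild-type library. By their brightest probe sets, all 8 measured genes of that list were within 1.5-fold, as were 11609 of all 12390 measured genes. Eomes was only just so, at 1.4997-fold higher (0.58), and its other measured probe set gave 1.25. For Neurod2, another measured probe set gave -0.85. For Bcl11b, the other measured probe sets gave 0.59, just beyond 1.5-fold, 0.11 and -0.004. The summed signal of the list was 7977 in the null library against 8487 in wild type. Skeletal muscle genes were also within 1.5-fold, in 8 of 8, with sums of 124471 in the null library against 122933 in wild type. The muscle gene Acta1 was at the 99.9th percentile of both arrays, and the salivary gland gene Bpifa2 at the 99.7th (null) and 99.8th (wild type). Both arrays thus held strong signals of tissues other than cortex. Over all measured genes, 3.24% were at least 1.5-fold lower. In epidermis 5 of 7 measured genes were lower by that size, with sums of 20673 in the null library against 39093 in wild type. Krt5 (0.11) and Krt14 (-0.39) were within 1.5-fold. In the pituitary list all 3 measured genes were at least 1.5-fold lower. The sum over its 6 genes with a value, including 3 unmeasured ones of which Tshb and Lhb had higher signals in the null library, was 2596 in the null library against 5813 in wild type. In salivary gland 2 of 6 were lower by that size, with sums of 32454 in the null library against 44880 in wild type. Ivl of the epidermis, Cga of the pituitary and Dcpp1 of the salivary gland were below the array median in the null library. They passed the filter through the wild-type array alone, so these counts support nothing. None of 4 liver genes was measured. No marker in any list was at 0 on either array. The part of these tissues in the crystallin difference was not tested.

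Other features of the 2 libraries differed too. Sox11 was lower in the null library with all 6 of its probe sets, which gave 16.4% to 47.8% of the wild-type signal. Its signal nevertheless stayed high, as the brightest probe set was at 3149 in the null library, the 95.7th percentile of that array, against 6582 in wild type. Which probe sets lie in the deleted sequence is not stated in the labels. Xist was at 155 in the null library, against 17505 in wild type, and the Y-linked gene Uty at 617 in the null library against 21.8 in wild type. Kdm5d, also Y-linked, was at 446 in the null library and 14.6 in wild type. By these genes the null embryo was male and the wild-type embryo female, so sex and genotype cannot be told apart here. The ratio of 3′ to 5′ signal, which reflects RNA integrity, was 1.16 for the beta-actin control in the null library and 1.78 in wild type. For Gapdh it was 0.816 in the null library and 0.922 in wild type. The part of these features in the crystallin difference was not tested.

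**Figure D4:**
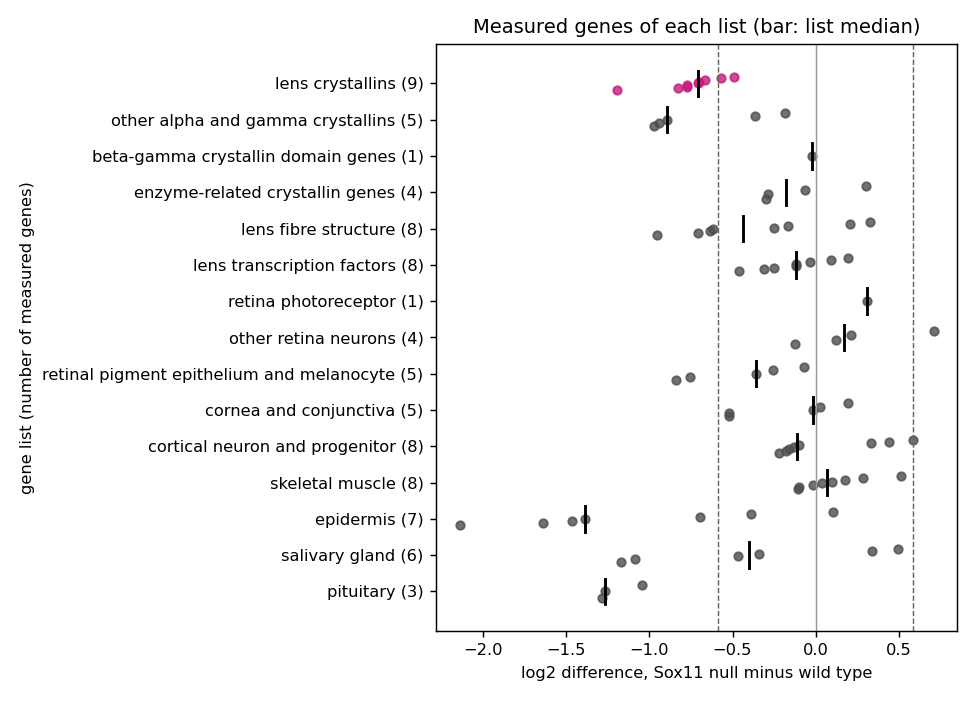
Log2 differences, Sox11 null minus wild type (x), of the measured genes in each list (rows, with the number of measured genes), with a bar at the list median and dashed lines at 1.5-fold. The 9 lens crystallins all lie below 0. Muscle and cortical genes lie on both sides of 0 within the dashed lines, and some epidermal and pituitary genes reach further down than the crystallins.

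Most alternative settings could only shift the crystallins together, because each has 1 probe set. Quantile normalization, removal of a loess trend and a floor at the array median could change them singly. The floor took Crybb2 to -0.65, against -1.19 as reported, and a 2-fold size counted 1 gene as lower in place of 7. Cryaa ranged from -0.61 to -0.51 and was beyond 1.5-fold in 4 of its 10 alternatives. Cryba2 was within 1.5-fold in all 10 of its own, and the other 7 genes were beyond it in every alternative that gave a value.

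**Figure D5:**
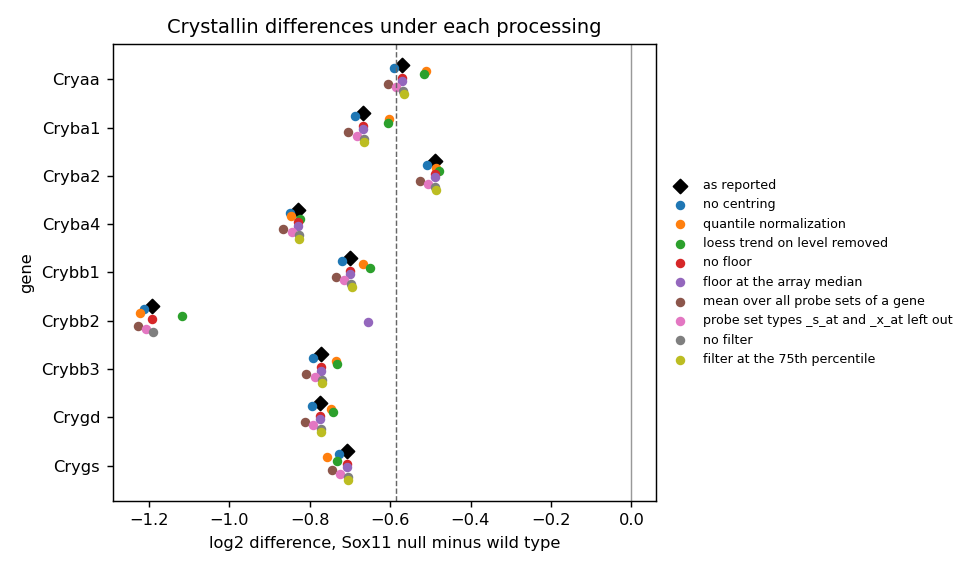
Log2 difference, Sox11 null minus wild type (x), of each crystallin gene (rows) as reported (diamond) and under 9 alternative processings (circles), with a dashed line at 1.5-fold lower. Cryaa lies on the line, and Crybb2, at -1.19 as reported, is at -0.65 when the floor is set at the median of each array.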

How the data were processed

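Probe set signals of 2 arrays, 1 per genotype, were taken from the deposited table, which the authors gave as linear intensities. The submitters' processing notes name Affymetrix Expression Console; how probes were summarised and filtered is not given in the sources used. Mean intensities after trimming 2% at each end were 500.002 on both arrays. Precision is limited by the number of arrays. Of 45101 probe sets, 64 controls were left out and 34945 were annotated to 1 gene, 932 to several, and 9160 are unnamed here. Symbols of 34741 were updated by gene number through the RefSeq table of GRCm38.p6.

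The brightest probe set stood for each gene. Signals were taken to log2, the null array was shifted by the median difference of measured genes (-0.020), and each array's signals under its 25th percentile (52.5 for Sox11 null and 52.9 for wild type) were raised to that percentile. With 1 array per genotype, genes were counted at 1.5-fold and 2-fold without a test. Named genes were all crystallins, the lens fibre and lens factor genes, the leading genes of the other lists, and genes that check the libraries. Chromosomal neighbours and some further list genes were chosen after their values were seen. The members and lists were chosen with earlier results of these data known. Alternatives varied the centring, floor, filter, probe set choice and fold. Code ran in Python 3.11.15 with pandas 2.3.3 and statsmodels 0.14.6, and was tested on simulated data.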

Additional observations from a re-analysis of the deposited data

How the results depend on the processing

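No paired analysis was possible because each genotype has 1 array. No replicate could be left out for the same reason. Over 207 values recomputed under the alternatives, 199 moved by less than the pooled SD of 0.39 between measured probe sets of the same gene (over 5155 genes) or, for counts, by no more than 1.5 times. Most of these settings only shift all crystallins by a constant, so this shows little about stability. With the floor at the array median, Crybb2 was at -0.65 and 264 measured genes were at least 1.5-fold lower. With no filter on low signals, 796 genes were at least 1.5-fold lower and 722 higher, and with the filter at the 75th percentile 139 and 134, as more or fewer genes were counted. That stricter filter left 2 lens fibre genes lower and gave no value for Crybb2. At 2-fold, 1 crystallin remained counted as lower, against 7 at 1.5-fold. The crystallin median ran from -0.74 to -0.70. The limits are 1 embryo per genotype, with sex not separable from genotype, and 1 probe set per crystallin gene. In addition there is no detection call, and gamma crystallin probe sets may bind related genes.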

Other observations

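Genes that carry a crystallin name without being lens structural proteins of the mouse were also on the arrays. The mu-crystallin gene Crym, which encodes a thyroid hormone binding protein, was at 1075 in the Sox11-null library and 884 in the wild-type library (log2 difference 0.30). Cryz, which encodes a quinone oxidoreductase, was at 685 in the null library and 855 in wild type (-0.30), and its second measured probe set gave 0.25. Cryl1, a sugar dehydrogenase gene, was at 358 in the null library and 444 in wild type (-0.29), and a second measured probe set gave 0.37. Cryzl1 was at 1273 in the null library and 1352 in wild type (-0.07), and its 3 other measured probe sets gave -0.25, -0.15 and 0.35, which differ in sign. All 4 were within 1.5-fold by their brightest probe set, as were 11609 of all 12390 measured genes. Crybg3, which carries the beta- and gamma-crystallin fold in a larger protein, was at 498 in the null library and 513 in wild type (-0.02), and Crybg1 and Crybg2 were below the median of both arrays.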
